A study of Mus musculus with 36 samples.

Results

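The genes of the major histocompatibility complex (MHC) and of antigen presentation were followed in flow-sorted lung alveolar macrophages and monocytes of mice that breathed filtered air or concentrated particulate matter. Members were all genes of the deposited FPKM table whose symbol starts with H2-, together with Cd74, Ciita, Nlrc5, B2m, Tap1, Tap2 and Tapbp, provided that they had a value above 0 in at least 3 of the 36 libraries. Of 39 genes with such a name, 33 met this rule, out of 27562 genes in the table, and 27 of them were above 0 in all 36 libraries. They fall into 21 class I genes, 11 class II genes and 1 gene, H2-Ke6, a short-chain dehydrogenase that carries the H2 name for its place in the region. The 6 dropped genes were H2-Bl, H2-Ea-ps, H2-M5, H2-M6-ps, H2-M9 and H2-T3. Of these H2-Ea-ps, the α chain gene of the class II E molecule, is annotated as a polymorphic pseudogene and was above 0 in 1 library. On the mm10 build, 29 of the 33 members lie on chromosome 17, B2m lies on chromosome 2, Cd74 on chromosome 18, Ciita on chromosome 16 and Nlrc5 on chromosome 8.

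The mice were chimeras: male C57BL/6J hosts (CD45.2) were irradiated under a lead shield over the chest, given busulfan and transplanted with marrow of B6.SJL-Ptprca Pepcb/BoyJ donors (CD45.1). Every group therefore had been irradiated, drug treated and transplanted, and no group of intact mice was included. The 12 groups of 3 libraries were tissue-resident alveolar macrophages (TR-AΦ, CD45.2) after 4 and 32 weeks, bone marrow-derived alveolar macrophages (BM-AΦ, CD45.1) after 32 weeks, and CD45.2 monocytes after 4 and 32 weeks and CD45.1 monocytes after 32 weeks. Each was sorted from mice exposed to filtered air (FA) or to ambient particles under 2.5 µm (PM2.5). Hosts were young adults when the chimeras were made, and mice exposed for 32 weeks were older and further from transplantation than those exposed for 4, so that exposure time, age and time since transplantation cannot be told apart. AΦ were sorted as CD64+ CD11c high CD11b low cells, and monocytes as Ly6G- MHC II- CD64 low CD11b high cells, so the monocyte gate itself asked for cells without MHC class II protein on their surface.

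MHC class I molecules are a heavy chain paired with the light chain B2m, and they show peptides from inside the cell to CD8 T cells and natural killer cells. Tap1 and Tap2 pump those peptides into the endoplasmic reticulum, Tapbp (tapasin) holds the empty molecule at the transporter, and Nlrc5 is the transactivator that drives the class I genes. MHC class II molecules are an α and a β chain, chaperoned by the invariant chain Cd74, and they show peptides of engulfed material to CD4 T cells once the DM proteins have exchanged the invariant chain fragment for a peptide. The DO proteins restrain DM, and Ciita is the master transactivator of the class II genes. Alveolar macrophages clear particles from the airspace and are known as poor stimulators of T cells, and class II genes in macrophages and monocytes are classically induced by interferon-γ.

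The promoter stretches below are shown because the 2 classes are controlled through different short elements. RefSeq promoter windows on GRCm38.p6 were at hand for 23 of the 33 members. The 250 bases before the start were searched on both strands for 3 cores. The Y box core, read by the factor NF-Y, was searched as GATTGG. The X box core, which lies upstream of the Y box in class II promoters, was searched as CTNGNAAC. The core of the NF-κB element known as enhancer A was searched as GGGGATT, whose last 4 letters can be the first 4 of the Y box core. The Y box core was found in 8 of 8 class II and 9 of 14 class I members with a window, against 14.6% of all 32851 promoter windows. The X box core was found in 5 of 8 class II and 4 of 14 class I members, against 10.9% of all windows, and the enhancer A core in 1 of 8 class II (H2-Aa) and 6 of 14 class I members, against 2.76%. In the first 3 stretches, those of class II genes, capitals mark the X box core and then the Y box core. In the last 3, those of class I genes, capitals mark the enhancer A core and, in H2-Q6 and H2-Q7, the Y box core read on the opposite strand. They come from chr17:34287864-34287938 (H2-Aa, minus strand), chr17:34305752-34305826 (H2-Eb1, plus), chr17:34238790-34238864 (H2-Ob, plus), chr17:34000353-34000497 (H2-K1, minus), chr17:35424660-35424804 (H2-Q6, plus) and chr17:35439005-35439149 (H2-Q7, plus). A match describes the letters and is no evidence of binding. H2-Ab1, Tap2, Ciita, Nlrc5, Cd74, H2-K2, H2-Q1, H2-Q5, H2-T10 and H2-T24 had no window here.
H2-Aa: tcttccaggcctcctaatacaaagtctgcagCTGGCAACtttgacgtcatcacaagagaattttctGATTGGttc
H2-Eb1: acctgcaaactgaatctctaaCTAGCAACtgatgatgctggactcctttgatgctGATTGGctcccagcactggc
H2-Ob: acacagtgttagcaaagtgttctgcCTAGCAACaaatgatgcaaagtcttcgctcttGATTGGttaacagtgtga
H2-K1: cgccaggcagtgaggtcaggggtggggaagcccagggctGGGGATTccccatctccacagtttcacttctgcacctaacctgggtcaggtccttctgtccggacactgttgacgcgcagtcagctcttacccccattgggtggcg
H2-Q6: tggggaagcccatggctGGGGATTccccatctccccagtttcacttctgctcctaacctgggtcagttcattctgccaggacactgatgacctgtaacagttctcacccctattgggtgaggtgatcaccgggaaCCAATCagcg
H2-Q7: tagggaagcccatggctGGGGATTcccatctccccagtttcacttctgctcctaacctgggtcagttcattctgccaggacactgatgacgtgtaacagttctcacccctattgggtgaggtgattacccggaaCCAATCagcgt

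The X box core began 84 bases before the start of H2-Aa, 94 before H2-Eb1 and 90 before H2-Ob, and the Y box core began 49, 60 and 58 bases before the same starts, so that the pair lay in the same order and at nearly the same spacing in a high gene of the classical chains and in a low gene of the DO pair. The class I stretches of H2-K1, H2-Q6 and H2-Q7 held the enhancer A core 111, 173 and 133 bases before their starts.

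FPKM scale fragments by transcript length and library size, so levels can be set side by side between genes. The files hold no counts, so the depth of each library is unknown and no counting interval can be given. The summed FPKM of a library ran from 1839577 to 3339020. The markers of the sorted cell types differed as labelled: the summed level of 11 alveolar macrophage markers was 6613 to 14120 FPKM in the 18 AΦ libraries and 273 to 1636 in the 18 monocyte libraries. That of 9 monocyte markers was 309 to 784 in AΦ and 1687 to 4608 in monocytes. Replicate 2 of CD45.2 monocytes at 4 weeks stood apart in both exposures, with summed neutrophil markers of 341 (FA) and 1046 (PM2.5) FPKM against 24.01 to 51.8 in the other 4 libraries of that cell type and time. Their summed T and NK cell markers were 68.5 and 76.2 against 3.69 to 9.29. Both replicate 2 libraries of TR-AΦ at 4 weeks carried B cell markers at 92.4 and 95.1 FPKM against 1.73 to 4.28 in the other 4. In bulk RNA of sorted cells, fewer cells with a transcript and less of it per cell cannot be told apart. Changes were tested with limma on log2(FPKM + 1), a scale that understates the change of low genes, and called at a Benjamini-Hochberg adjusted p under 0.05. Adjustment ran over every gene averaging 1 FPKM or more, which were 12665 genes in AΦ, 12856 in monocytes and 13307 in both together. The share of all genes without overlap between groups was not counted, so a lack of overlap below describes the values and is no test.

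Class II transcripts were among the most abundant of the members in both cell types. Averaged over the 36 libraries, the invariant chain Cd74 stood at 2568 FPKM, above the classical chains H2-Aa (1369), H2-Ab1 (1026) and H2-Eb1 (517). The peptide exchange genes H2-DMa (95.9) and H2-DMb1 (79.3) lay well below the chains they serve, the DO genes H2-Ob (3.48) and H2-Oa (3.08) lower still, and Ciita at 10.3. H2-DMb2 (5.89) and H2-DMb1 are close copies, so reads could have been split between them, and H2-Eb2 was at 0.519 and listed at 0 in all 6 TR-AΦ libraries of 32 weeks.

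H2-Aa, the α chain of the I-A molecule, had 1030, 839 and 873 FPKM in the 3 TR-AΦ libraries of FA mice at 4 weeks and 601, 432 and 1109 in those of PM2.5 mice. At 32 weeks TR-AΦ had 798, 1032 and 1268 (FA) and 1090, 821 and 952 (PM2.5), and BM-AΦ had 1567, 1306 and 1449 (FA) and 1735, 1107 and 1229 (PM2.5). The BM-AΦ libraries lay mostly above the TR-AΦ libraries, but the 2 sets overlapped. In CD45.2 monocytes the 4-week libraries had 1092, 638 and 186 FPKM (FA) and 745, 575 and 62.6 (PM2.5), whereas the 32-week libraries had 2086, 2764 and 2266 (FA) and 2064, 2718 and 2258 (PM2.5). Every 32-week CD45.2 monocyte library was above every 4-week one, and the lowest 4-week value in each exposure came from replicate 2. CD45.1 monocytes of 32 weeks had 2460, 1239 and 2325 (FA) and 1824, 2620 and 2117 (PM2.5), overlapping with the CD45.2 monocytes of the same age but with 1 FA and 1 PM2.5 library below them.

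The other chains followed the same order. H2-Eb1 is counted here as RNA only, as its partner gene H2-Ea-ps was a dropped pseudogene. The sum of H2-Aa, H2-Ab1 and H2-Eb1 was 831 to 2221 FPKM in TR-AΦ at 4 weeks, 1761 to 2571 in TR-AΦ at 32 weeks and 2290 to 3840 in BM-AΦ. It was 116 to 2591 in CD45.2 monocytes at 4 weeks, 4333 to 5933 in CD45.2 monocytes at 32 weeks and 2531 to 6070 in CD45.1 monocytes. Thus monocytes sorted as negative for MHC class II protein carried class II mRNA at levels up to those of the macrophages and above, and whether this RNA came from the gated cells or from others in the sort was not tested. H2-Aa and H2-Ab1, the partners of one molecule, stayed near each other: their ratio ran from 1.01 to 1.75 over all libraries. The ratio of H2-Eb1 to H2-Aa was 0.157 (FA) and 0.131 (PM2.5) in replicate 2 of the 4-week CD45.2 monocytes and 0.401 to 0.473 in the other 4 libraries of those groups.

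The genes that act on the chains were then compared between the 2 cell types. At 32 weeks H2-DMa ranged from 94.2 to 153 FPKM in AΦ and from 66.3 to 109 in monocytes. H2-Aa ranged from 798 to 1735 in AΦ and from 1239 to 2764 in monocytes, so both genes overlapped. The main tests below did not call H2-DMa at 32 weeks. The ratio of H2-DMa to H2-Aa was 0.080 to 0.134 in the 12 AΦ libraries and 0.035 to 0.053 in the 12 monocyte libraries of 32 weeks, with no overlap. At 4 weeks the ratio did not separate the cell types. H2-DMa was at 18.5 FPKM or more in every CD45.2 monocyte library of 4 weeks. H2-Aa was only 62.6 in the PM2.5 replicate 2, so the ratio in that library lay above the AΦ range just given. H2-Ob, the β chain of DO, ran from 0.158 to 3.70 FPKM in AΦ and from 1.22 to 8.82 in monocytes, with the highest AΦ values in BM-AΦ.

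**Figure D1:**
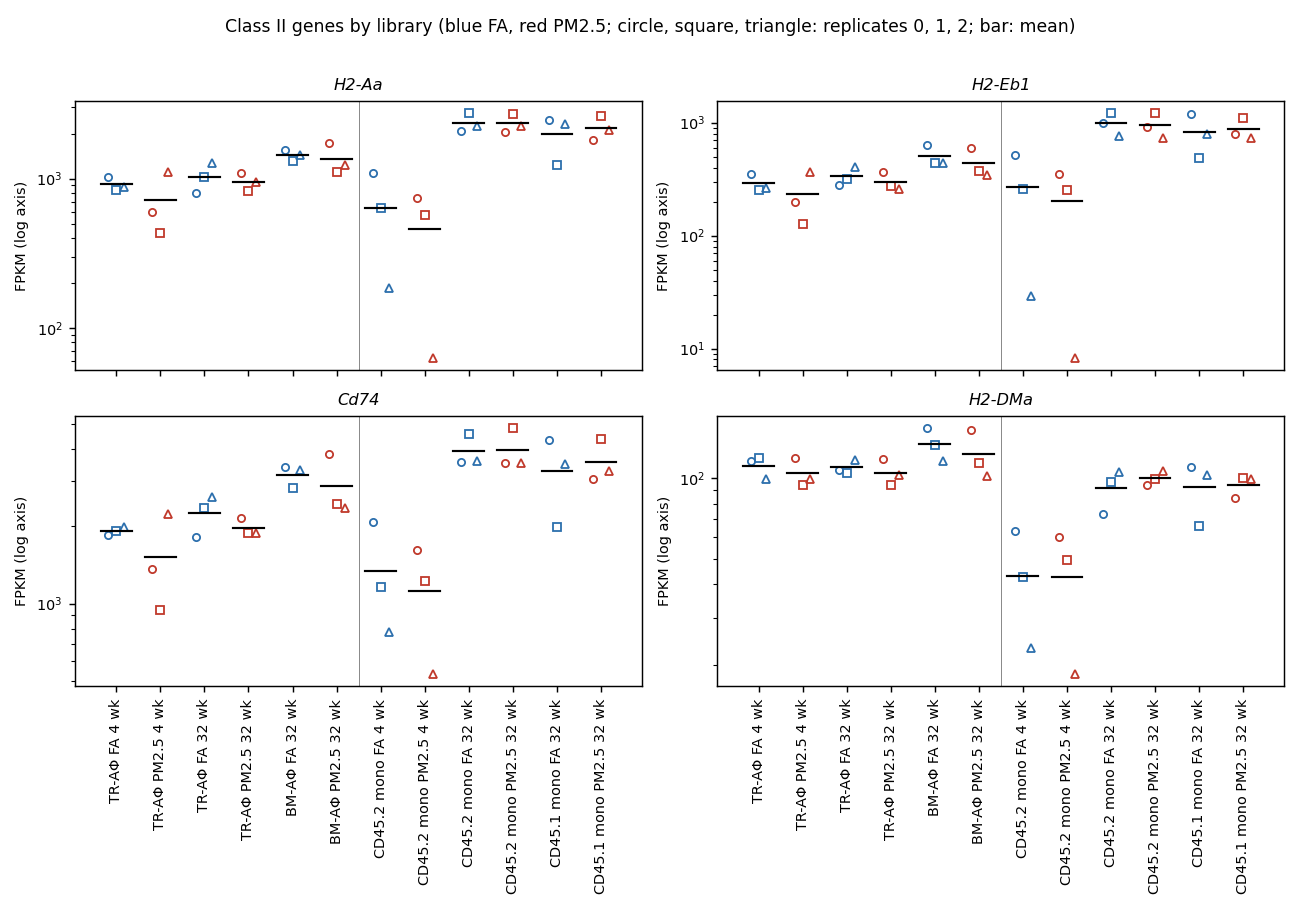
FPKM on a log axis of H2-Aa, H2-Eb1, Cd74 and H2-DMa in each library of the 12 groups, with FA in blue and PM2.5 in red, symbols for replicates 0, 1 and 2 and a bar at the group mean. The 4-week CD45.2 monocytes reach down to 62.6 FPKM of H2-Aa in replicate 2, and those of 32 weeks lie between 2064 and 2764.

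Among the class I genes, the light chain B2m was highest, at 1490 FPKM over the 36 libraries, followed by the classical heavy chains H2-D1 (552) and H2-K1 (426). Tapbp (98.2) and the Qa-1 gene H2-T23 (75.3) came next, then H2-Q4 (37.2), Tap1 (22.8) and H2-Q6 (20.6), with Tap2 at 12.1 and Nlrc5 at 6.15. H2-Q1, H2-Q2, H2-Q10 and H2-T10 averaged under 1 FPKM, and H2-Q10 was listed at 0 in all 12 AΦ libraries of 32 weeks. The H2-Q and H2-T genes, and H2-K1, H2-D1 and the pseudogene H2-K2, are near-identical in parts, so the sharing of reads among them is uncertain. H2-T22, H2-T23 and H2-T24 are merged into one locus in the deposited table, and whether strand was used in quantification is not given in the sources used here.

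H2-K1 had 370, 351 and 347 FPKM in TR-AΦ of FA mice at 4 weeks, 307, 295 and 385 at 32 weeks, and 414, 306 and 421 in BM-AΦ. The corresponding PM2.5 libraries had 298, 250 and 319, then 304, 325 and 263, and 367, 410 and 356. All AΦ libraries thus lay between 250 and 421 FPKM, a narrow range. CD45.2 monocytes had 771, 614 and 818 (FA) and 585, 554 and 800 (PM2.5) at 4 weeks, and 348, 427 and 331 (FA) and 538, 425 and 390 (PM2.5) at 32 weeks. CD45.1 monocytes had 491, 303 and 334 (FA) and 599, 483 and 430 (PM2.5). The 4-week monocytes were above every AΦ library, and the 32-week monocytes overlapped with AΦ.

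Nlrc5, the class I transactivator, separated the cell types fully. It ran from 0.300 to 3.26 FPKM in the 18 AΦ libraries (median 1.24) and from 5.83 to 18.6 in the 18 monocyte libraries (median 10.7). The transporter gene Tap1 ran from 6.24 to 16.6 FPKM in AΦ (median 11.2) and from 19.8 to 47.3 in monocytes (median 33.9), again without overlap. H2-T24, a non-classical heavy chain gene, was likewise at 0.746 to 6.89 FPKM in AΦ (median 3.14) and 11.9 to 50.6 in monocytes (median 27.6). By contrast H2-M3, whose product presents formylated bacterial peptides, had 6.72 to 13.7 FPKM in AΦ and 7.79 to 14.1 in monocytes, and Tapbp 58.5 to 111 and 82.5 to 120, so that neither separated the cell types. Over the 12 groups, the mean of Nlrc5 differed 18.1-fold between the highest (CD45.2 monocytes, PM2.5, 4 weeks) and the lowest group (TR-AΦ, PM2.5, 32 weeks), whereas that of Tapbp differed 1.49-fold and that of H2-M3 1.42-fold.

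**Figure D2:**
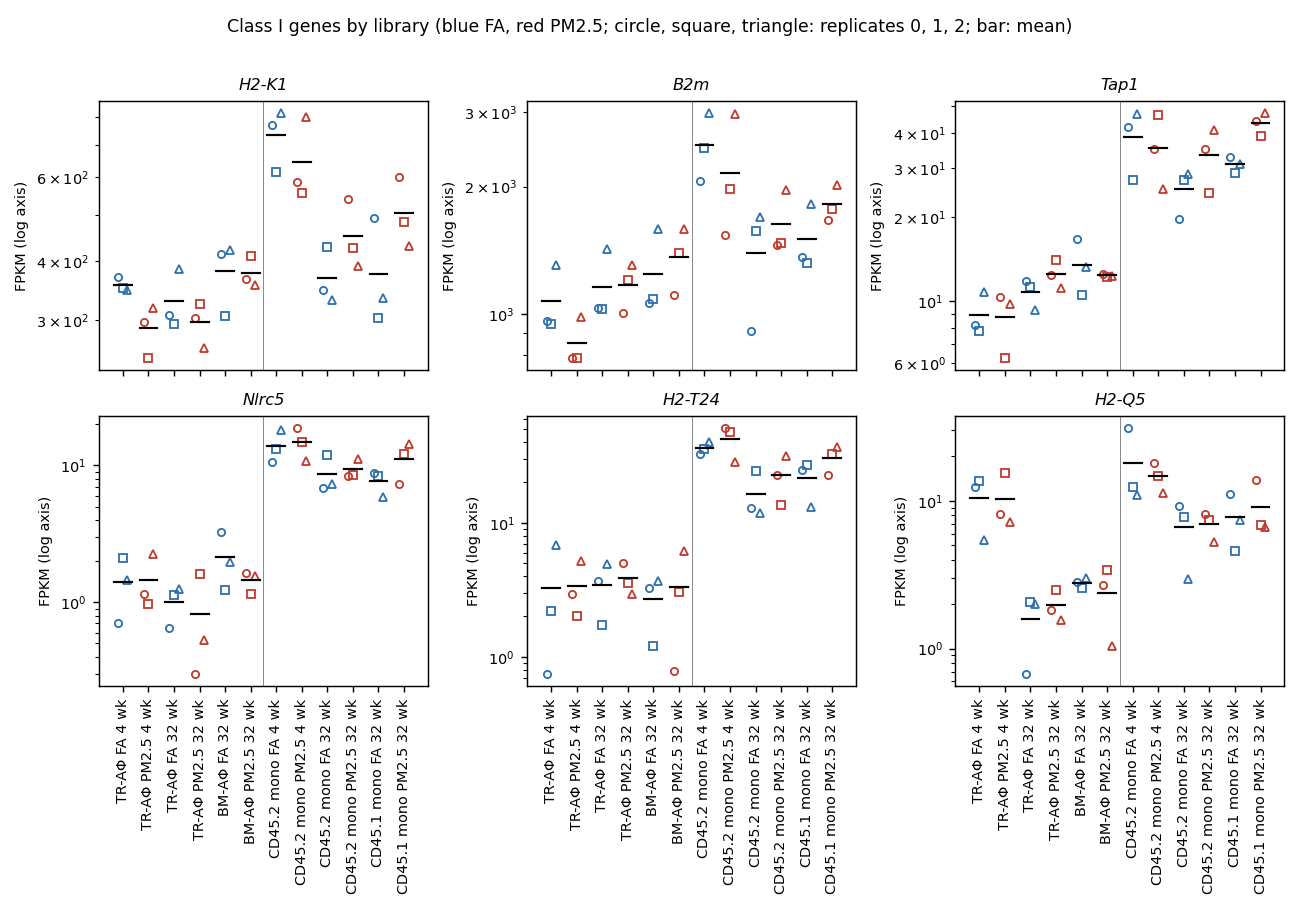
FPKM on a log axis of H2-K1, B2m, Tap1, Nlrc5, H2-T24 and H2-Q5 in each library of the 12 groups, with FA in blue and PM2.5 in red, symbols for replicates 0, 1 and 2 and a bar at the group mean. Nlrc5 stays at or below 3.26 FPKM in every AΦ library and at or above 5.83 in every monocyte library.

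AΦ and monocytes of the same origin and age were then compared, with FA and PM2.5 libraries together (6 against 6). At 4 weeks, TR-AΦ had less of most class I transcripts than CD45.2 monocytes: 13 of the 17 class I members tested were lower and none was higher. Nlrc5 averaged 1.43 against 14.3 FPKM (log2 difference -2.66, SE 0.21, adjusted p = 3.29e-11), Tap1 8.87 against 37.1 (-1.93, SE 0.16) and B2m 962 against 2335 (-1.26, SE 0.18). H2-K1 differed by -1.09 (322 against 690 FPKM), H2-D1 by -0.89, H2-Q4 by -1.38, H2-T23 by -0.99 and H2-T24 by -3.35. The differences of Tap2 (-0.52), Tapbp (-0.39) and H2-T22 (-0.60) were smaller but past the threshold, those of H2-Q6 and H2-Q7 were -1.09 and -1.10, and those of H2-K2 (-0.45), H2-Q5 (-0.60), H2-M2 (0.23) and H2-M3 (-0.04) were not past it. The share of all genes called lower in this comparison was 25.5%, and called higher 22.6%. The median log2 difference was -0.99 over the class I members tested and -0.02 over all genes.

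The same contrast at 32 weeks, in other libraries of the same 2 cell types, gave 9 of 17 class I members lower in TR-AΦ and none higher, against 23.7% of all genes lower and 23.6% higher. Nlrc5 (0.914 against 9.03 FPKM; log2 difference -2.41, SE 0.21, adjusted p = 2.61e-10), Tap1 (-1.23, SE 0.16), H2-T24 (-2.10, SE 0.34) and H2-Q4 (-1.12, SE 0.15) were again lower, each without overlap. H2-Q5, which had not passed at 4 weeks, was lower as well (-1.46, SE 0.29), also without overlap. B2m (-0.35, adjusted p = 0.114), H2-D1 (-0.14) and Tap2 (-0.06) no longer passed. H2-K1 (-0.38), H2-K2 (-0.77), H2-Q7 (-0.82) and H2-T23 (-0.39) passed with overlapping groups, and of these H2-K1 was lost in 4, H2-Q7 in 7 and H2-K2 in 10 of the 12 fits that left out 1 library. BM-AΦ against CD45.1 monocytes gave 7 of 17 lower and none higher, against 23.8% and 27.1% of all genes: Nlrc5 (-1.88, SE 0.21, adjusted p = 2.37e-08), Tap1 (-1.45), H2-T24 (-2.84), H2-Q5 (-1.36), H2-K2 (-1.09), H2-Q4 (-0.71) and H2-T23 (-0.45). H2-Ke6 was higher in AΦ in both 32-week comparisons (0.47, adjusted p = 0.0273, and 0.51, adjusted p = 0.0148). The first was lost without 1 of 5 libraries (TR-AΦ FA replicate 0 and PM2.5 replicate 0, CD45.2 monocytes FA replicates 1 and 2 and PM2.5 replicate 1). The second was lost without 1 of 3 (BM-AΦ FA replicate 1 and PM2.5 replicate 0, CD45.1 monocytes PM2.5 replicate 1).

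Part of these class I counts depended on scaling. When each library was brought to the same sum (TPM scale), the median of all genes rose to 0.17, 0.11 and 0.29 in the 3 comparisons of AΦ with monocytes. The share of calls that were higher in AΦ went from 47% to 66.6%, from 49.9% to 61.6% and from 53.2% to 74.7%. On that scale 10, 5 and 5 class I members were lower in AΦ, 2 (Tap2 at 0.45 and Tapbp at 0.35) were higher in BM-AΦ than in CD45.1 monocytes, and the class I median there turned from -0.35 to 0.04. The calls lost on the TPM scale at 4 weeks were Tap2, Tapbp and H2-T22, and Tapbp was also lost after quantile normalization. Those lost on the TPM scale at 32 weeks were H2-K1, H2-K2, H2-Q7 and H2-T23 in TR-AΦ, and H2-Q4 and H2-T23 in BM-AΦ. Nlrc5, Tap1 and H2-T24 were lower in AΦ in all 3 comparisons on every scale.

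In the same comparisons, 2 of 10 class II members tested were higher and 1 was lower in TR-AΦ than in CD45.2 monocytes at 4 weeks, beside 22.6% and 25.5% of all genes. H2-DMa had 94.2 to 119 FPKM in TR-AΦ and 18.5 to 63.4 in CD45.2 monocytes, with no overlap (log2 difference 1.44, SE 0.22, adjusted p = 3.23e-06), and H2-DMb1 was higher as well (75.2 against 30.5; 1.43, SE 0.27). H2-Ob was lower (1.05 against 4.26; -1.36, SE 0.29). The chains H2-Aa (0.99, adjusted p = 0.0533), H2-Ab1 (0.91) and H2-Eb1 (1.02) did not pass, and their 4-week groups overlapped. Without both replicate 2 libraries of the 4-week monocytes, a choice made after seeing the data, H2-DMa still differed by 0.99 (adjusted p = 5.40e-06) and H2-DMb1 by 0.89 (adjusted p = 0.000395). On the TPM scale Cd74, H2-Aa and H2-Ab1 were also higher in TR-AΦ, at 0.88, 1.31 and 1.23.

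At 32 weeks 5 of 10 class II members were lower in TR-AΦ and none was higher, beside 23.7% and 23.6% of all genes. H2-Aa was lower in TR-AΦ (993 against 2359 FPKM; -1.26, SE 0.42, adjusted p = 0.0151), as were Cd74 (2111 against 3919; -0.89, SE 0.26, adjusted p = 0.00525), H2-Ab1 (-1.17, adjusted p = 0.0470), H2-Eb1 (-1.60, adjusted p = 0.0343) and H2-Ob (-1.87, SE 0.29), each without overlap. H2-DMa (0.17) and H2-DMb1 (0.26) did not pass. H2-Ab1 was lost in 10 and H2-Eb1 in 8 of the 12 fits without 1 library, with adjusted p up to 0.0924 and 0.0678, and the other 3 calls were not lost in those fits. After quantile normalization H2-Aa (adjusted p = 0.0648), H2-Ab1 (adjusted p = 0.142) and H2-Eb1 (adjusted p = 0.0877) were lost, which left Cd74 and H2-Ob. BM-AΦ and CD45.1 monocytes showed no class II call in limma, beside 27.1% of all genes higher and 23.8% lower, with 2 members at an unadjusted p under 0.05, H2-Ob (-0.68) and H2-DMa (0.45). With only the libraries compared in the fit, 5 class II members were called there. H2-Aa (-0.56), H2-Eb1 (-0.83) and H2-Ob (-0.68) were then lower and H2-DMa (0.45) and H2-DMb1 (0.49) higher in BM-AΦ. On the TPM scale H2-DMa (0.84) and H2-DMb1 (0.87) were higher in BM-AΦ and the class II median turned from -0.31 to 0.03. Markers of dendritic cells, which are rich in class II, also differed, though not always in the direction of class II. Of 8 tested, 4 were lower and 1 higher in TR-AΦ at 4 weeks, where the class II median was 0.75. At 32 weeks 6 were lower in TR-AΦ, and 2 were lower and 1 higher in BM-AΦ. Their summed level was 8.37 to 37.0 FPKM in TR-AΦ at 4 weeks, 6.60 to 14.9 at 32 weeks and 18.3 to 74.0 in BM-AΦ. It was 11.3 to 161 and 57.3 to 198 in CD45.2 monocytes of the 2 ages and 70.4 to 257 in CD45.1 monocytes. B cells carry class II as well, and of 3 B cell markers tested 2, Ighm and Cd79b, were lower in AΦ in each of the 3 comparisons. The summed level of 8 such markers was 1.73 to 95.1 FPKM in TR-AΦ at 4 weeks, 4.37 to 21.9 at 32 weeks and 0.720 to 84.3 in BM-AΦ. It was 39.5 to 68.7 and 32.7 to 72.4 in CD45.2 monocytes of the 2 ages and 28.1 to 117 in CD45.1 monocytes. The part of both cell types in the class II differences was not tested.

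**Figure D3:**
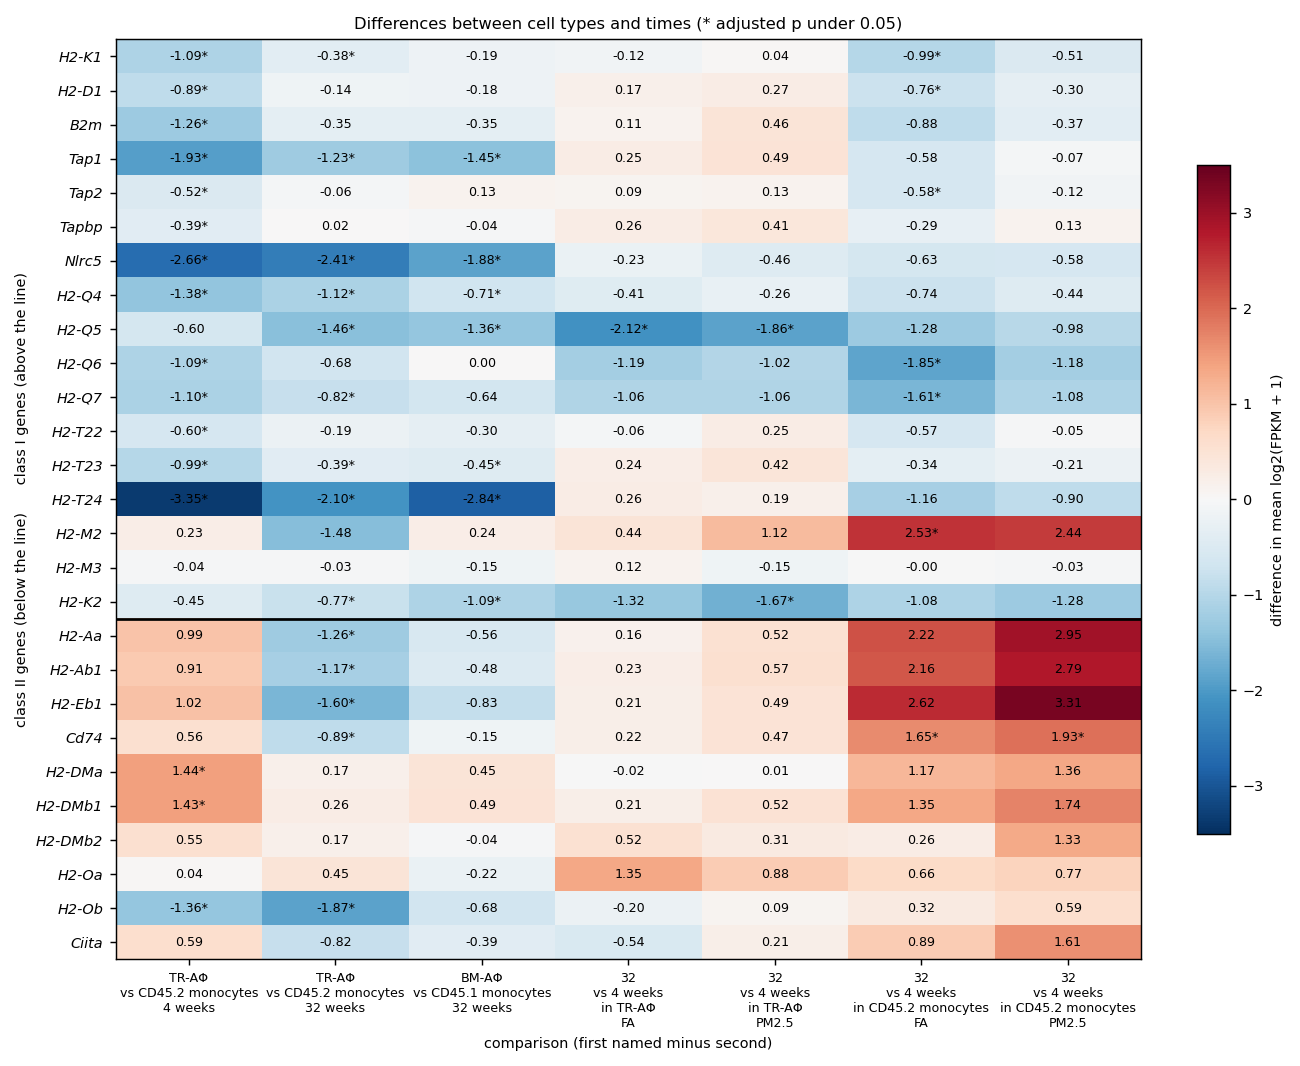
Heat map of log2 differences of 27 members in 7 comparisons of cell type or time, coloured from lower to higher in the group named first, with a star where the adjusted p was under 0.05. Nlrc5, Tap1 and H2-T24 are starred as lower in AΦ in all 3 comparisons of AΦ with monocytes, where the class I median of the comparison of BM-AΦ with CD45.1 monocytes changes sign on the TPM scale.

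Within CD45.2 monocytes, the class II gene Cd74 rose between 4 and 32 weeks in both exposures, and in FA mice 5 class I genes fell and 1 rose. Cd74 went from 2072, 1165 and 776 FPKM to 3548, 4572 and 3588 in FA mice and from 1609, 1230 and 534 to 3502, 4788 and 3516 in PM2.5 mice. All 32-week libraries were above all 4-week libraries, and the change passed in both exposures (1.65, SE 0.43, adjusted p = 0.0305 in FA; 1.93, SE 0.43, adjusted p = 0.0312 in PM2.5). In FA mice all 10 class II members tested had a log2 change above 0, with a median of 1.26 against -0.05 over all genes, but only Cd74 passed, beside 3.13% of all genes called higher. In PM2.5 mice the 10 were again above 0, with a median of 1.67, and Cd74 was the only call, beside 1.67% of all genes. H2-Aa (2.22, adjusted p = 0.0975, and 2.95, adjusted p = 0.0544), H2-Eb1 (2.62 and 3.31) and H2-DMa (1.17 and 1.36) did not pass. Their groups did not overlap, which is a description only, as the share of all genes without overlap was not counted. Without both replicate 2 libraries of 4 weeks, H2-Aa passed in both exposures (1.496, adjusted p = 0.0265, and 1.83, adjusted p = 0.0320) and Cd74 in neither (1.32, adjusted p = 0.0569, and 1.47, adjusted p = 0.0895). Leaving out 1 library at a time, Cd74 was lost in 5 of 6 fits in each exposure, all but the one without replicate 0 of 4 weeks, with adjusted p up to 0.136 in FA and 0.151 in PM2.5. On the TPM scale Cd74, H2-DMa and H2-DMb1 were called in FA, and H2-Aa too in PM2.5.

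Over the same interval 5 of 18 class I members tested fell in FA mice and 1 rose, beside 4.08% and 3.13% of all genes. H2-K1 fell from 771, 614 and 818 FPKM to 348, 427 and 331 (-0.99, SE 0.23, adjusted p = 0.0197) and H2-D1 from 899, 751 and 822 to 476, 496 and 480 (-0.76, SE 0.21, adjusted p = 0.0429). The Qa-2 genes H2-Q6 (54.4 to 15.1 FPKM; -1.85, SE 0.44, adjusted p = 0.0205) and H2-Q7 (41.1 to 13.1; -1.61, SE 0.37, adjusted p = 0.0169) and the transporter gene Tap2 (16.1 to 10.5; -0.58, SE 0.16, adjusted p = 0.0368) fell too, each without overlap. H2-M2, a class I gene of the M region, rose from 1.95, 1.60 and 0.210 FPKM to 8.54, 25.2 and 6.23 (2.53, SE 0.66, adjusted p = 0.0310). In all 17 of the 18 had a change below 0 with a median of -0.71. In PM2.5 mice no class I member passed in limma (7 at an unadjusted p under 0.05), beside 0.747% of all genes called lower, and the median was -0.33. H2-K1 there differed by -0.51 (adjusted p = 0.297) and H2-M2 by 2.44 (adjusted p = 0.0649). Whether FA and PM2.5 monocytes differed in these changes over time was not tested.

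These calls rested on few libraries. Each of the 6 class I calls in FA monocytes was lost in 3 to 6 of the 6 fits without 1 library. H2-D1 was lost without any of them and H2-K1 without replicate 0 or 2 of either age. H2-Q6 and H2-Q7 were lost without replicate 0 or 2 of 4 weeks or replicate 2 of 32 weeks. Tap2 was lost without any but replicate 1 of 32 weeks, and H2-M2 without any but replicate 2 of 32 weeks. The highest adjusted p was 0.113 for H2-D1, 0.0817 for H2-K1, 0.0795 for H2-Q6, 0.0676 for H2-Q7, 0.154 for Tap2 and 0.136 for H2-M2, and the direction held in all of these fits. On the TPM scale only H2-Q7 fell and H2-M2 rose among them, and the share of all calls that were higher went from 43.4% to 72.5%. After quantile normalization none of the 5 genes that fell passed (adjusted p = 0.0514 to 0.154), and H2-M2 did (adjusted p = 0.0390). Without both replicate 2 libraries of 4 weeks none of the 6 passed (adjusted p = 0.0564 to 0.0969). Both replicate 2 libraries of 4 weeks, with their neutrophil and T and NK cell markers, also had the lowest class II and dendritic cell marker levels. The dendritic cell sum was 15.0 (FA) and 11.3 (PM2.5) FPKM there, against 68.1 to 161 in the other 4 libraries of 4 weeks and 57.3 to 198 at 32 weeks. Of 7 dendritic cell markers tested, 1, Siglech, rose in each exposure (0.667 to 6.92 and 0.189 to 7.99 FPKM), as did Cd4, 1 of 2 T and NK cell markers tested (0.864 to 21.4 and 1.03 to 16.7). Of 9 alveolar macrophage markers tested, Ear1, Plet1 and Mertk rose in each exposure, while 3, Fabp4 among them, fell in FA mice and none passed as lower in PM2.5 mice. At 32 weeks Ear1, Plet1, Siglech and Cd4, but not Mertk, were called lower in CD45.1 than in CD45.2 monocytes. Ccl22, a chemokine gene of mature dendritic cells, was at 0.325 FPKM in the FA replicate 2 of 4 weeks and listed at 0 in the PM2.5 one, against 17.3 to 44.5 in the other 4. The part of these cells in the class I and class II changes was not tested.

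**Figure D4:**
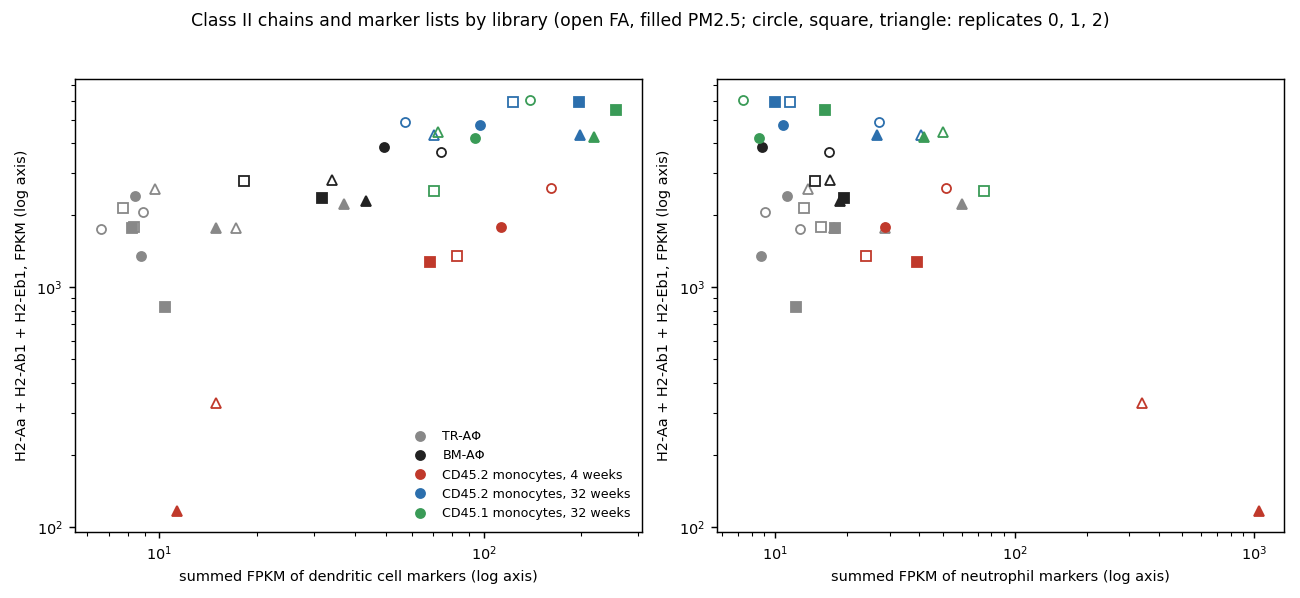
Summed FPKM of H2-Aa, H2-Ab1 and H2-Eb1 in each library against the summed FPKM of dendritic cell markers and of neutrophil markers, both on log axes, with open symbols for FA and filled symbols for PM2.5. Replicate 2 of the 4-week CD45.2 monocytes lies lowest in class II, with dendritic cell markers of 15.0 and 11.3 FPKM and neutrophil markers of 341 and 1046 FPKM.

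TR-AΦ were compared over the same interval. H2-Q5, listed by the annotation as a polymorphic pseudogene of the Q region, fell from 12.4, 13.6 and 5.46 FPKM at 4 weeks to 0.676, 2.06 and 2.02 at 32 weeks in FA mice (-2.12, SE 0.37, adjusted p = 0.0126). It fell from 8.10, 15.5 and 7.14 to 1.82, 2.51 and 1.57 in PM2.5 mice (-1.86, SE 0.37, adjusted p = 0.0276). The pseudogene H2-K2 fell in PM2.5 mice from 4.63, 9.49 and 4.36 to 1.35, 1.39 and 0.750 (-1.67, SE 0.37, adjusted p = 0.0466), and in FA mice it differed by -1.32 (adjusted p = 0.137). None of these groups overlapped. The calls among 17 class I members were thus 1 lower in FA mice, beside 0.632% of all genes, and 2 lower in PM2.5 mice, beside 0.782%, with none higher, beside 0.15% and 0.268%. H2-Q5 in FA was lost without replicate 0 or 1 of 4 weeks or replicate 0 of 32 weeks (adjusted p up to 0.0800). In PM2.5 it was lost without replicate 1 of 4 weeks or any of 32 weeks (up to 0.125). H2-K2 was lost without replicate 1 or 2 of 4 weeks or any of 32 weeks (up to 0.178). H2-Q6 (-1.19 and -1.02) and H2-Q7 (-1.06 in both) did not pass. H2-K1 differed by -0.12 and 0.04 and H2-D1 by 0.17 and 0.27. No class II member passed in limma, with 1 at an unadjusted p under 0.05 in each exposure, H2-Oa in FA (1.35) and H2-DMb1 in PM2.5 (0.52), and the class II medians were 0.21 and 0.48 against 0.01 and 0.03 over all genes. On the TPM scale the share of higher calls over all genes in PM2.5 mice went from 25.6% to 8.64%, and both class I calls remained past the threshold.

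Whether CD45.2 monocytes and TR-AΦ differed in their change over time was tested directly, in the same libraries as the comparisons above and with both exposures together. The change in monocytes was above that in TR-AΦ for Cd74 (difference of log2 changes 1.45, SE 0.36, adjusted p = 0.0113), H2-Aa (2.25, SE 0.59, adjusted p = 0.0170) and H2-DMa (1.27, SE 0.31, adjusted p = 0.00887), 3 of 10 class II members beside 4.35% of all genes. It was below that in TR-AΦ for H2-D1 (-0.75, SE 0.17, adjusted p = 0.00585), H2-T23 (-0.60, SE 0.15, adjusted p = 0.0101), H2-K1 (-0.71, SE 0.19, adjusted p = 0.0214) and B2m (-0.91, SE 0.25, adjusted p = 0.0244), 4 of 17 class I members beside 3.53% of all genes. B2m was lost without replicate 2 of the 4-week monocytes in FA or in PM2.5 or replicate 0 of the 32-week FA monocytes, with adjusted p up to 0.0527, and the other 6 were not lost in any of 24 such fits. Without both replicate 2 libraries, B2m (-0.72, adjusted p = 0.0962) and H2-K1 (-0.59, adjusted p = 0.0813) did not pass and the other 5 did. On the TPM scale and after quantile normalization no class I member passed and 6 and 5 class II members did, while the share of higher calls over all genes went from 55.2% to 76.8% on the TPM scale.

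Origin was compared within each cell type at 32 weeks, again with FA and PM2.5 libraries together. BM-AΦ had more of each class II transcript than TR-AΦ by the sign of the difference, 10 of 10 with a median of 0.43 on the log2 scale against 0.02 over all genes. No member of either class passed in limma, beside 0.316% of all genes. At an unadjusted p under 0.05 there were 5 class II members and 3 class I members, among them Cd74 (3018 against 2111 FPKM; 0.51, adjusted p = 0.503), H2-Aa (0.50), H2-K1 (0.28) and Nlrc5 (0.55). H2-Ob had 3.67, 2.27 and 3.70 FPKM (FA) and 3.56, 1.92 and 3.38 (PM2.5) in BM-AΦ against 0.484, 0.777 and 1.64 (FA) and 1.10, 0.243 and 1.04 (PM2.5) in TR-AΦ. The BM-AΦ libraries were all above the TR-AΦ libraries, but the test over all genes was not passed (1.14, SE 0.28, adjusted p = 0.143). How many of all genes were separated in this way was not counted. Dendritic cell markers moved the same way: the 5 tested of 10 were all above 0. Of these 2, Ccr7 (5.40 against 0.251 FPKM) and Fscn1 (4.01 against 0.534), passed, and the summed level was 18.3 to 74.0 FPKM in BM-AΦ and 6.60 to 14.9 in TR-AΦ. The marker Xcr1 was listed at 0 in 5 of 6 TR-AΦ libraries and in 0 of 6 BM-AΦ libraries. How many of all genes were alike in this was not counted, so it is a description only. The part of dendritic cells in the class II values was not tested. CD45.1 and CD45.2 monocytes did not differ past the threshold for any of 29 members tested, beside 0.669% of all genes. There were H2-T22 (0.38) and H2-Oa (0.76) at an unadjusted p under 0.05 in limma. The medians were 0.08 for class I (-0.05 on the TPM scale, where the median of all genes fell to -0.11) and -0.05 for class II. Some markers of other cells were called lower in CD45.1 monocytes. They were Ear1 (1.04 against 31.2 FPKM), Plet1 (2.42 against 16.7), Siglech (0.608 against 7.45) and Cd4 (0.588 against 19.1). The part of such cells in the member values was not tested.

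Exposure to PM2.5 was the question of the study, and no member passed the test in any of the 6 comparisons of PM2.5 with FA. The shares of all genes called by limma were 0.0079% in TR-AΦ at 4 weeks, 0% in TR-AΦ at 32 weeks, 0.0158% in BM-AΦ, 0.00778% in CD45.2 monocytes at 4 weeks, 0% in CD45.1 monocytes and 0% in CD45.2 monocytes at 32 weeks, so that almost no gene of any kind was called. At an unadjusted p under 0.05 there was no member in the first 4, and 2 each in the last 2: H2-Q6 (0.96) and Tap2 (0.36) in CD45.1 monocytes and H2-T10 (0.51) and Tap2 (0.34) in CD45.2 monocytes at 32 weeks. Tap2 had 10.4, 8.08 and 10.7 FPKM in FA and 12.99, 13.2 and 11.8 in PM2.5 CD45.1 monocytes (SE 0.16, adjusted p = 0.946). These groups did not overlap, but how many of all genes were alike in this was not counted. With 3 libraries a group the spread was wide: H2-Aa in TR-AΦ at 4 weeks averaged 914 ± 102 FPKM (SD, n = 3) in FA and 714 ± 352 in PM2.5. The paper used another method, Cuffdiff at a q-value under 0.05, and did report genes changed by PM2.5 in TR-AΦ at both times. Among the pathways it gives as enriched at 4 weeks is antigen processing and presentation. Why the 2 methods differed was not tested, so the lack of calls here does not show a lack of effect.

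The members' differences are given here as a description without a test. In AΦ the class II median was -0.39 in TR-AΦ at 4 weeks, -0.11 in TR-AΦ at 32 weeks and -0.18 in BM-AΦ, with 9, 9 and 10 of 10 class II members below 0. The class I medians were -0.11, -0.07 and -0.02 (0.01 on the TPM scale in BM-AΦ), against -0.02, 0 and -0.01 over all genes. In 4-week CD45.2 monocytes the medians were -0.14 for class I and -0.18 for class II, against -0.01 over all genes. They turned to 0.04 for both classes on the TPM scale, where the median of all genes was 0.13. In 32-week monocytes the class medians lay above 0: 0.37 for class I and 0.19 for class II in CD45.1 cells, with all 18 and all 10 above 0, and 0.25 and 0.17 in CD45.2 cells, with 17 of 18 and 8 of 10 above 0. The medians of all genes were 0.03 in CD45.1 and 0.02 in CD45.2 cells. On the TPM scale the CD45.1 medians were 0.25 for class I and 0.08 for class II. The summed level of dendritic cell markers was 70.4 to 139 FPKM in FA and 93.8 to 257 in PM2.5 CD45.1 monocytes, and 57.3 to 123 and 97.7 to 198 in CD45.2 monocytes of 32 weeks. That of B cell markers was 28.1 to 43.7 and 44.7 to 117 in CD45.1 and 32.7 to 64.5 and 41.2 to 72.4 in CD45.2 monocytes. None of these markers passed as different between the exposures, and their part in the medians was not tested. Members of a class share libraries, regulation and in part reads, so these counts are not independent. Tests of whether the effect of exposure differed between 4 and 32 weeks in TR-AΦ, or between TR-AΦ and BM-AΦ, called no member and had none at an unadjusted p under 0.05 in limma, beside 0.0079% and 0.0158% of all genes.

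**Figure D5:**
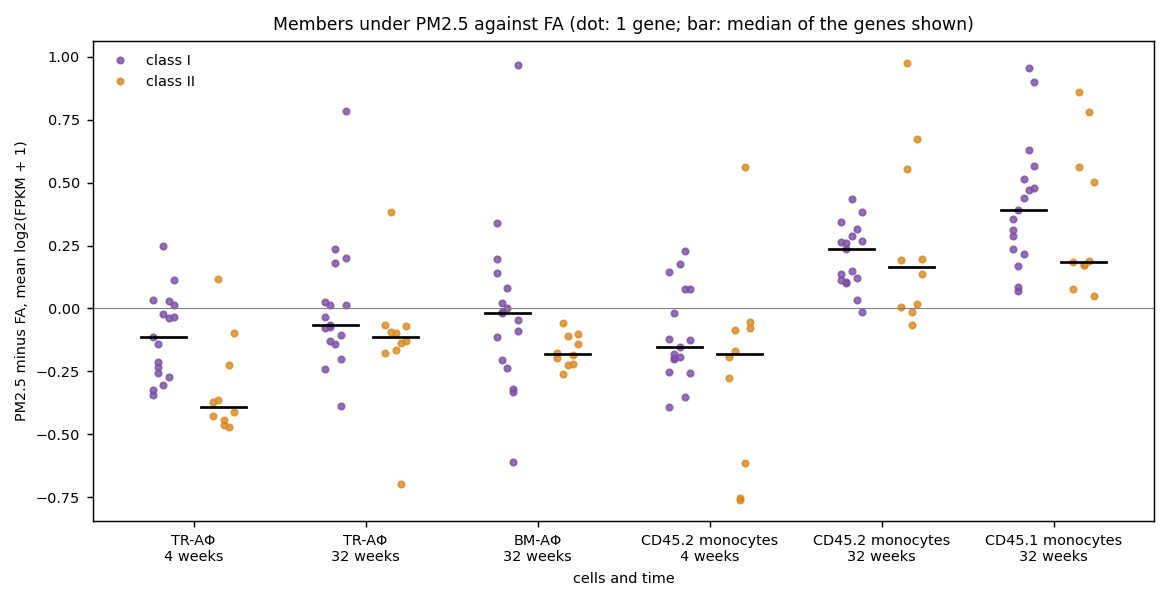
Log2 differences of PM2.5 from FA of 27 members in each of the 6 comparisons, 1 dot for each gene and a bar at the median of the genes shown, class I and class II apart. No dot passed the threshold; the AΦ medians of class II lie below 0 and the 32-week monocyte medians of both classes above 0, while those of 4-week monocytes change sign on the TPM scale.

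Genes that serve the members or control them were taken as lists. Their counts stand beside the shares of all genes called higher and lower in AΦ, which were 22.6% and 25.5% in the comparison at 4 weeks, 23.6% and 23.7% in that of TR-AΦ at 32 weeks and 27.1% and 23.8% in that of BM-AΦ. Of 10 genes that supply and load class I peptides, 6 were lower and 2 higher in TR-AΦ than in CD45.2 monocytes at 4 weeks. Among them were the proteasome activator genes Psme1 (21.0 against 45.05 FPKM; -1.11) and Psme2 (-0.99) and the immunoproteasome gene Psmb9 (-0.92). At 32 weeks 2 were lower and 1, the chaperone gene Calr (0.73), was higher, and in BM-AΦ against CD45.1 monocytes 2 were lower and 3 higher. Of 6 genes of class II processing, 4 were higher and 2 lower in TR-AΦ at 4 weeks, 3 and 2 at 32 weeks, and 3 and 1 in BM-AΦ. The lysosomal protease gene Ctsd led them in all 3 comparisons (1575 against 145 FPKM, 2545 against 285 and 2267 against 140; 3.42, 3.26 and 4.02). Of 4 class I-like genes outside the region 3 were higher in AΦ each time, namely the lipid presenter Cd1d1 (2.32, 2.15 and 2.88), the metabolite presenter Mr1 (2.23, 2.48 and 2.69) and the Fc receptor Fcgrt (1.88, 1.38 and 2.03). Hfe, of iron uptake, was lower (-2.71, -1.99 and -1.98).

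Genes of the interferon response were counted against the same shares. Of 7 genes of the interferon-γ receptor and its signalling, 7, 6 and 6 were lower in AΦ in the 3 comparisons, with Ifngr1 at 77.8 against 237 FPKM in the first (-1.56). Of 16 interferon-induced genes tested of 18 in the list 14, 14 and 15 were lower, beside 25.5%, 23.7% and 23.8% of all genes, with Irf7 at 3.09 against 72.6 FPKM (-4.41). The class I regulator Irf1 fell with time in TR-AΦ from 34.0 to 7.96 FPKM in FA mice (-1.96, SE 0.22, adjusted p = 0.000473) and from 38.9 to 6.83 in PM2.5 mice (-2.35, adjusted p = 0.000103). The interferon-induced chemokine gene Cxcl10 fell from 165 to 2.37 and from 93.2 to 0.968 FPKM. Few others did: of the 18 interferon-induced genes, Isg15 (9.85 to 1.12 FPKM) was the only other call in FA mice, and Cxcl10 stood alone in PM2.5 mice. Irf1 was the only call of the 7 interferon-γ signalling genes in each exposure. The shares of all genes called lower were 0.632% in FA and 0.782% in PM2.5 mice. In the same libraries H2-K1, H2-D1, B2m, Tap1 and Nlrc5 did not pass the test. In FA monocytes 3 of 6 genes listed for costimulation fell between 4 and 32 weeks, beside 4.08% of all genes. They were Cd40 (-1.36) and the genes of the inhibitory PD-1 ligands, Cd274 (76.3 to 8.42 FPKM, -3.07) and Pdcd1lg2 (-1.38). Of 6 class II processing genes 1, the protease gene Lgmn, rose (69.1 to 200 FPKM; 1.53), beside 3.13%. In PM2.5 monocytes none of either list passed in limma (2 of each at an unadjusted p under 0.05), beside 0.747% of all genes lower and 1.67% higher, and whether the exposures differed in this was not tested.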

How the data were processed

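RNA-seq of 36 libraries (12 groups of 3) was analysed from the deposited table of 27562 genes. The authors sorted the cells, made SMART-Seq Stranded libraries, aligned reads to mm10 (the submitters' processing notes name STAR, Cufflinks and Cuffdiff, with no versions) and deposited FPKM per library, with no counts, so depth is unknown. No column was left unmatched to a sample. The key in the study's supplement gives MF2 as TR-AΦ and MF1 as BM-AΦ. Mono2 libraries were taken for CD45.2 monocytes and Mono1 libraries for CD45.1 monocytes following that key, which does not name monocytes.

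FPKM were taken to log2(FPKM + 1), genes averaging under 1 FPKM in a model's libraries were dropped, and limma 3.58.1 (R 4.3.3) was fitted with empirical Bayes moderation, for 18 AΦ libraries, 18 monocyte libraries or all 36, with Benjamini-Hochberg adjustment over all genes of that model and 0.05 as threshold. Promoter windows were searched with Python 3.11.15, pandas 2.3.3 and numpy 2.4.6, and plots drawn with matplotlib 3.10.9. The steps were tested on simulated data. Alternatives were a pseudocount of 0.1, no filter, quantile normalization, values scaled to a sum of 1000000 (TPM scale), a fit of only the libraries compared, the replicate number as a block and leaving out each library. Named with values were the classical chains, the accessory and regulatory genes, every other member past the threshold, and at most 4 genes of a list and comparison. The members and lists were chosen with earlier results of these data known. Each library is described as 1 of 3 mice of a group, and p-values measure the spread among these libraries.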

Additional observations from a re-analysis of the deposited data

Results flagged for a closer look

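The members below were singled out because the test of cell type by time was passed, that is, because the change from 4 to 32 weeks in CD45.2 monocytes differed from that in TR-AΦ (limma, 24 libraries of these groups within the 36-library model). The monocyte change minus the macrophage change was 1.45 for Cd74, 2.25 for H2-Aa and 1.27 for H2-DMa on the log2 scale. It was -0.91 for B2m, -0.75 for H2-D1, -0.71 for H2-K1 and -0.60 for H2-T23. None of these class I genes passed on the TPM scale or after quantile normalization. H2-Aa was lost with only the libraries compared in the fit. The same libraries held the 2 replicate 2 monocyte libraries of 4 weeks with neutrophil and T and NK cell markers, and without them B2m and H2-K1 did not pass while the other 5 did. The part of those cells in these differences was not tested.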

How the results depend on the processing

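No member changed direction under any of 1075 alternative values computed for the 57 gene results past the threshold. The numbers of members called moved most for changes over time. In TR-AΦ of FA mice 1 member was called and 0 with only the libraries compared (0 to 1 without 1 library). In TR-AΦ of PM2.5 mice it was 2, falling to 1 with a pseudocount of 0.1, without the filter or after quantile normalization, and to 0 with only the libraries compared (0 to 2 without 1 library). In FA monocytes it was 7, and 3 without the filter, 3 after quantile normalization, 0 with only the libraries compared and 1 without both replicate 2 libraries of 4 weeks, an alternative chosen after seeing the data (0 to 5 without 1 library). In PM2.5 monocytes it was 1, and 0 without the filter, 4 on the TPM scale and 0 with only the libraries compared (0 to 3 without 1 library). The comparison of BM-AΦ with CD45.1 monocytes went from 8 to 13 with only the libraries compared (7 to 11 without 1 library), that of TR-AΦ with monocytes ranged from 16 to 20 at 4 weeks and from 9 to 15 at 32 weeks without 1 library, and cell type by time from 6 to 11. Fits of only the libraries compared hold fewer samples. The cause of the other shifts was not tested. Deviations of same-numbered libraries had r from -0.10 to 0.21, and in no 2 groups were all 3 pairs over 0.1. That rule cannot exclude a feature shared by 1 replicate number. Between FA and PM2.5 at 4 weeks, r of replicate 2 was 0.155 in TR-AΦ and 0.21 in CD45.2 monocytes, whose replicate 2 libraries shared markers of other cells. With the replicate block the counts were 0 for TR-AΦ in PM2.5, 1 for FA monocytes, 0 for PM2.5 monocytes, 1 for BM-AΦ against TR-AΦ (H2-Ob) and 13 for cell type by time. Of the 57 results, 19 were lost without at least 1 library, and 18 on the TPM scale, 17 after quantile normalization and 2 with a pseudocount of 0.1. The PM2.5 comparisons stayed at 0 under every alternative. With FPKM alone, members under 1 FPKM could not be weighed by depth.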

Other observations

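The 5 members under the filter in AΦ gave values but no test. H2-Eb2, a second β chain gene named for the E molecule, was listed at 0 in 8 of 18 AΦ libraries and in none of the monocyte libraries. It reached 2.42 FPKM in monocytes. H2-Q10, a class I gene known for a secreted product of the liver, was listed at 0 in 13 of 18 AΦ and 3 of 18 monocyte libraries, with a highest value of 5.73 FPKM in monocytes. The heavy chain genes H2-D1 and H2-K1 kept a ratio of 1.39 to 1.63 in TR-AΦ at 32 weeks and 1.22 to 1.47 at 4 weeks, and of 1.005 to 1.22 in CD45.2 monocytes at 4 weeks and 1.16 to 1.45 at 32 weeks. Cd74 stood at 0.89 to 1.17 times the summed classical chains in AΦ and at 0.71 to 0.83 times in monocytes of 32 weeks, with no overlap, and at 2.36 and 4.59 times in replicate 2 of the 4-week monocytes.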
